A study of Mus musculus with 8 samples.

Results

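Whole kidneys of Lim1 conditional mutant mouse embryos at embryonic day 18.5 (E18.5) were compared with whole kidneys of control embryos at E14.5. The comparison asks whether the late mutant kidney resembles a younger normal kidney or differs from it. The members are the 2 arrays labelled E18.5 mutant and the 2 labelled E14.5 control, 4 of the 8 arrays of the series. In the mutant embryos (Lim1flox/lacZ; Rarb2-Cretg/+) one Lim1 allele was floxed, the other was replaced by lacZ, and the Rarb2-Cre transgene was present, and in the controls (Lim1flox/+; Rarb2-Cretg/+) a wild-type allele stood in place of lacZ beside the same transgene, all on a background labelled 129 / C57BL/6 / SJL/J mixed, with both sexes pooled. The Lim1 lines were of C57BL/6J and 129/SvEv origin and the Cre line of C57BL/6J and SJL/J origin. Since the controls also carry Cre, they lose their floxed allele in the same cells, and they are no wild-type kidneys. Rarb2-Cre acts in the metanephric mesenchyme, so the ureteric bud and what grows from it keep a floxed allele in both genotypes. The E18.5 mutant pool held kidneys of 9 embryos and the E14.5 control pool those of 23 embryos. The other 4 arrays, used for reference, held pools of 14 E18.5 control and 17 E14.5 mutant embryos of the same genotypes.

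The kidney forms from the ureteric bud, which branches into the collecting system, and from the mesenchyme around it, which holds nephron progenitors (the cap) and stroma. Cap cells turn into renal vesicles, and these into S-shaped bodies and the segments of the nephron, from the podocytes of the glomerulus through the proximal tubule and the loop of Henle to the distal tubule. Lim1 (gene symbol Lhx1) encodes a LIM homeodomain transcription factor of the ureteric bud and the renal vesicle. Between E14.5 and E18.5 a normal kidney gains tubules, stroma and vessels, and it loses part of its dividing progenitors.

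Values are linear signal intensities from dChip, 1 for each of 45037 probe sets that measure a transcript, and a probe set's signal is compared only with itself on other arrays. Each condition is 1 pool of RNA measured on 2 arrays from separate target preparations, so the duplicates give technical spread only, and no p-value was computed between the 2 pools alone. The error of a ratio is given as its range over the 4 pairings of single arrays. A gene was counted as higher in a condition when a probe set had a ratio of mean signals of at least 2 that also exceeded the fold between either pair of duplicates, a product of ratio and mean signal above 100, and, in the higher condition, signals no lower than the 40th percentile of each array. In whole kidneys, fewer cells of a type and less RNA per cell cannot be told apart.

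The 2 E18.5 mutant arrays differed more than any other duplicates. Their median absolute log2 difference was 0.214 over 27022 probe sets, against 0.134 for the E14.5 control arrays. Array 1 lay at 0.207 from the E14.5 control mean and 0.191 from the E18.5 control mean, while array 2 lay at 0.246 and 0.158. Among the array's own controls, 18 probe sets of hybridization spike-ins were 2.07 to 4.13 times higher on the E14.5 control arrays than on the E18.5 mutant arrays, with a median of 3.47. The 3' over 5' ratio of the beta-actin control was 1.57 and 1.92 in the E14.5 control against 1.23 and 1.31 in the E18.5 mutant. The part of these differences in the results was not tested.

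The 2 probe sets of Lhx1 gave no common direction. One probe set read 388 and 365 in the E14.5 control against 459 and 379 in the E18.5 mutant, a ratio of 1.11 (0.975 to 1.26). The other read 449 and 517 against 296 and 333, which put the control 1.54 times higher (1.35 to 1.75). It is not known here whether either lies in the deleted part, and the ureteric bud keeps an allele, so these values check neither genotype.

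By the criteria, 426 genes (488 probe sets) were higher in the E18.5 mutant and 456 genes (521 probe sets) in the E14.5 control. Of the 18193 named genes on the array, 376 were higher in the mutant, which is 2.07% of them, and 355 in the control, which is 1.95%. Of the 13479 named genes that reached the minimum signal in either condition, these were 2.79% and 2.63%. The median ratio among the probe sets was 2.39 upward and 2.37 downward, 40 and 38 probe sets passed 4-fold, and 4 passed 10-fold in each direction. Probe sets just inside and just outside the threshold had similar signals. With the mutant higher, 127 probe sets had a ratio of 1.9 to 2 and 92 a ratio of 2 to 2.1, at median signals of 607 and 629 in the mutant.

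The difference between the mutant arrays fell mostly on the probe sets higher in the E14.5 control. Of these 521 probe sets, 139 differed at least 1.5-fold between the 2 mutant arrays, 131 of them with array 1 higher, and array 1 was thus the one nearer the E14.5 control. Among the 488 probe sets higher in the mutant, 15 did so, all with array 2 higher. Of all probe sets at or above the minimum signal in either condition, 2.96% differed this much, against 26.7% of those higher in the control and 3.07% of those higher in the mutant. Without these probe sets 413 genes were higher in the mutant and 339 in the control. Array 2 alone gave 712 and 680 genes, and array 1 alone gave 295 and 464. Leaving out 1 control array moved the genes higher in the control most, to 715 without array 1 and 308 without array 2, and gave 424 and 502 genes higher in the mutant.

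**Figure D1:**
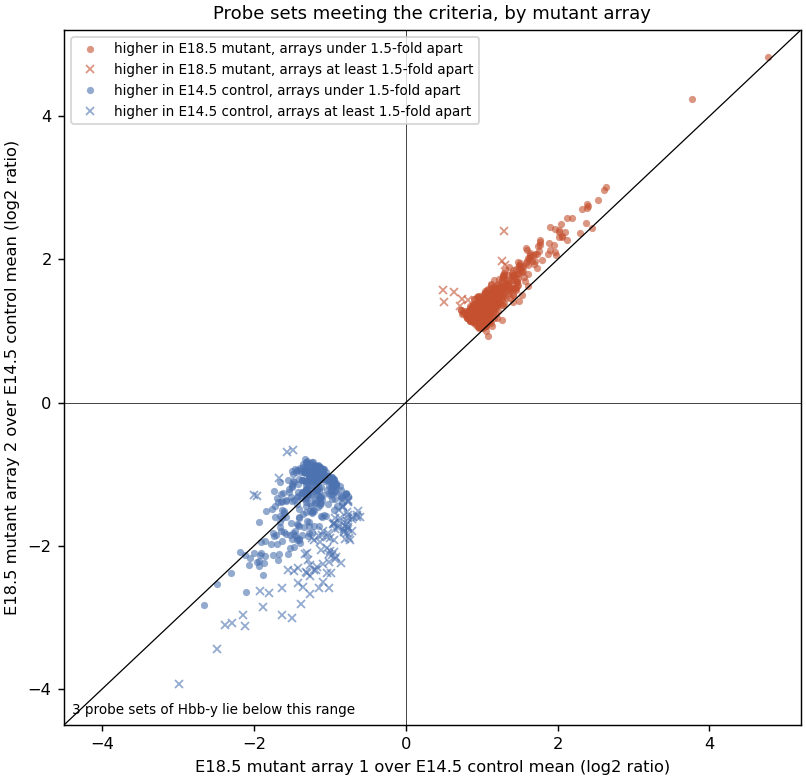
Log2 ratio of E18.5 mutant array 1 (horizontal axis) and of array 2 (vertical axis) over the mean of the E14.5 control arrays, for the 488 probe sets higher in the mutant (red) and the 521 higher in the control (blue), with crosses where the mutant arrays differed at least 1.5-fold and the line of equal values drawn. The blue crosses lie mostly below the line, with array 1 nearer the control, whereas red crosses are few. The 3 probe sets of Hbb-y lie below the drawn range.

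By the median difference over the whole profile, the late mutant kidney lay nearer to the E18.5 control than to the E14.5 control, by a gap that single arrays did not keep apart. The median absolute log2 difference between the E18.5 mutant and the E14.5 control was 0.202, or 1.15-fold, with 0.193 to 0.268 over single arrays. Between the E18.5 and E14.5 controls it was 0.226 (0.247 to 0.258 over single arrays), and between the 2 genotypes at E18.5 it was 0.142 (0.130 to 0.213). The range of single arrays around the mutant is wide because its arrays differed, and the range to the E14.5 control overlaps both other ranges. In probe sets that differed at least 2-fold the order of the condition means was clearer, with 3.61% between E18.5 mutant and E14.5 control, 6.34% between the controls and 1.96% between the genotypes at E18.5. By Pearson correlation the 2 mutant arrays gave different orders. Array 1 had r = 0.915 with the E14.5 control mean and 0.911 with the E18.5 control mean, while array 2 had 0.886 and 0.931. These measures share pools, and no test of their order was possible.

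**Figure D2:**
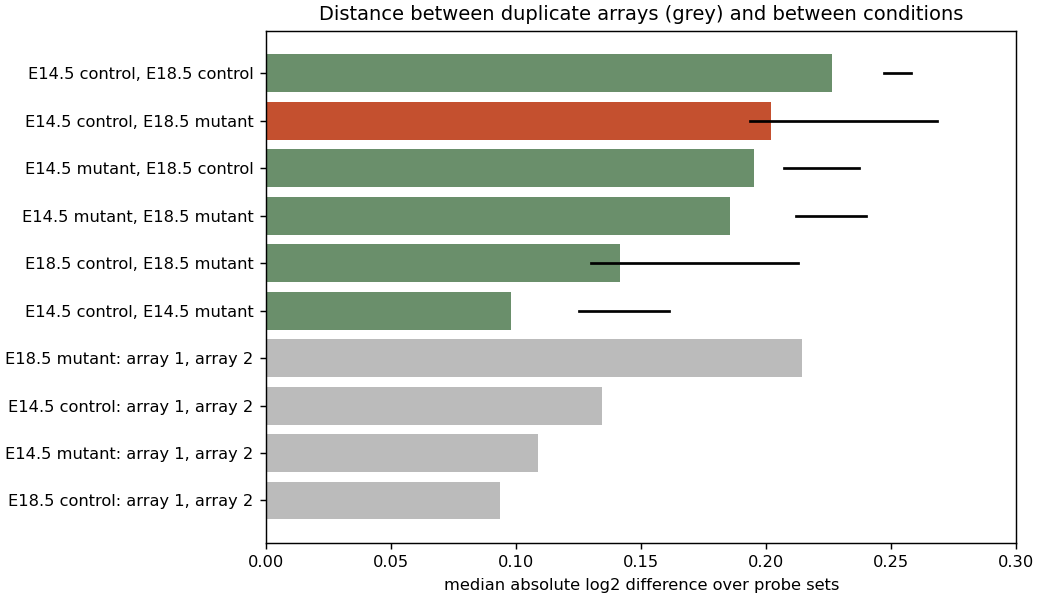
Median absolute log2 difference over 27022 probe sets between duplicate arrays of a pool (grey bars) and between the means of 2 conditions (other bars, with E18.5 mutant against E14.5 control in red). Black lines give the range over the 4 pairings of single arrays, which can lie above the bar because means of 2 arrays carry less noise. The E18.5 mutant lay at 0.202 from the E14.5 control and at 0.142 from the E18.5 control.

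The highest ratio belonged to Sprr2f, a small proline-rich protein of stressed and stratified epithelia. It read 113 and 113 in the E14.5 control against 3078 and 3189 in the E18.5 mutant, a ratio of 27.8 (27.3 to 28.3). The E18.5 control gave 464 and 477, so the mutant stood 6.66 times above the control of its own age. At the other end stood Hbb-y, the epsilon-like beta globin of primitive red cells, with 7021 and 6569.8 in the E14.5 control against 21.5 and 20.7 in the E18.5 mutant, 322 times higher in the control (306 to 340). Its E18.5 control values were 25.2 and 23.3, close to the mutant. The promoters of both genes are given here beside those of 3 genes from groups described below, Myl9 (smooth muscle), B2m (MHC class I) and Bub1b (mitosis), to show what lies in front of genes that stood far apart in the comparison. Each line holds the 250 bases before the RefSeq start in GRCm38.p6, 5' to 3' on the strand of the gene, with each match to 5 motifs in capitals, in either orientation. They mark CCAAT and TATAAA in Sprr2f, a CArG box in Myl9, and in B2m the core of an interferon response element (GAAA, any 2 bases and GAAA again) beside CCAAT, the TATA motif and TTTGAA. The same interferon core stands in Bub1b and Hbb-y too, beside CCAAT in both and TTTGAA in Hbb-y.
Sprr2f, chr3:92364937-92365186, plus strand: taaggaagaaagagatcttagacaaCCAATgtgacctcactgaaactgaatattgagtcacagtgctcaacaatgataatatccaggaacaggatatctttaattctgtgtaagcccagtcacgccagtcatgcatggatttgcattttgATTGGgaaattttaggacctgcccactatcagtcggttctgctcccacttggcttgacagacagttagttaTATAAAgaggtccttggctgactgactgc
Myl9, chr2:156775214-156775463, plus strand: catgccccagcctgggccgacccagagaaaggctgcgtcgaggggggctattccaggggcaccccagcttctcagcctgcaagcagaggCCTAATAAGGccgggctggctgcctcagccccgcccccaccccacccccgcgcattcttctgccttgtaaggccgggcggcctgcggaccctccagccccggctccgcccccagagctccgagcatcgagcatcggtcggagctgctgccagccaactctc
B2m, chr2:122147437-122147686, plus strand: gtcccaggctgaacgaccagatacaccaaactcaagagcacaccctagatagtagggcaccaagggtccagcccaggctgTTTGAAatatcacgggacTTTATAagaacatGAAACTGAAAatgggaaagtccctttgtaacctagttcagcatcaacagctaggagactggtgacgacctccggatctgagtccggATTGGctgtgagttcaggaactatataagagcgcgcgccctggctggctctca
Bub1b, chr2:118597961-118598210, plus strand: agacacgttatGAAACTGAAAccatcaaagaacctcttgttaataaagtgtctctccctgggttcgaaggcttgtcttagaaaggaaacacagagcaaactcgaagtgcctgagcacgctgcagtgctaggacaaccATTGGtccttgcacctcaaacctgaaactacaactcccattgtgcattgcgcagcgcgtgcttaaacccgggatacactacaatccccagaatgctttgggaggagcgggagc
Hbb-y, chr7:103853208-103853457, minus strand: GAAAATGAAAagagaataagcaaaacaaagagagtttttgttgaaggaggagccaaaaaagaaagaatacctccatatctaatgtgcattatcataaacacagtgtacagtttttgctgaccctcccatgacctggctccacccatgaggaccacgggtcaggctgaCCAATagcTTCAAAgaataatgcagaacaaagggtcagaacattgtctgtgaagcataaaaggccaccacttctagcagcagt

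These motifs were searched on both strands in the 250 bases before the start of each gene that the promoter table holds, 14452 of the 18193 named genes. The CCAAT motif, bound by the factor NF-Y, stood before 39.4% of them, before 32.8% of the 287 genes with a promoter among those higher in the mutant, and before 45.4% of the 280 among those higher in the control. TATAAA was found before 10.5% of all, 11.8% of those higher in the mutant and 8.93% of those higher in the control. In the list of mitosis genes 15 of 17 promoters held CCAAT, and in that of DNA replication 13 of 21. TTTGAA, a core of the cell cycle homology region, stood before 14.1% of all. It stood before 17.4% of the genes higher in the mutant and 11.8% of those higher in the control. By list it was found in 7 of the 17 promoters of mitosis, 2 of the 21 of DNA replication and 5 of the 16 of interstitial matrix. Of the interferon and MHC class I genes 4 of 10 held the interferon core, against 3.13% of all, and of the mitosis genes 1 of 17 did, Bub1b. A CArG box (CC, a run of A or T, GG), the site of serum response factor, stood before 1.43% of all and before 1 of the 12 smooth muscle genes with a promoter, Myl9. A match says that these letters are there and nothing about binding.

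Genes of the stromal matrix were higher in the mutant. Of 28 measured genes of interstitial matrix, 21 were higher in the E18.5 mutant and 0 in the E14.5 control, against 2.07% of named genes. All 28 had ratios above 1 by their brightest probe set, with a median log2 ratio of 1.13 (1.11 to 1.21 over pairings), where the median of all named genes was 0.02. Summed over the list, the signal was 27315 and 26722 on the control arrays and 56265 and 62702 on the mutant arrays. The E18.5 control over the E14.5 control had a median of 0.96, so this list stood high in both E18.5 kidneys.

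Among fibrillar collagens, Col3a1 read 3960.0 and 3806 in the E14.5 control against 8371 and 8722 in the E18.5 mutant, a ratio of 2.20 (2.11 to 2.29). Col1a2 read 3127 and 2965 against 6438 and 6746, a ratio of 2.16 (2.06 to 2.28). Genes of elastic fibres had larger ratios among those named. Mfap5, a microfibril protein, read 108 and 127 against 535 and 703, a ratio of 5.25 (4.21 to 6.48). Fbln5, which helps to assemble elastic fibres, read 274 and 321 against 1200.1 and 1581, a ratio of 4.67 (3.74 to 5.76). Lox, the enzyme that cross-links collagen and elastin, read 216 and 221 against 726 and 989, a ratio of 3.93 (3.29 to 4.58). This probe set was not the brightest of its gene. Sparc, a collagen-binding matrix protein, read 4321 and 3478 against 5263 and 5776 by its brightest probe set, a ratio of 1.42 (1.22 to 1.66) that did not meet the criteria, although another of its probe sets did. In all of these genes both mutant arrays lay above both control arrays.

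Smooth muscle genes went the same way in 5 of 17, against 2.07% of named genes, with 0 higher in the control and a median log2 ratio of 0.71 (0.47 to 0.95). The summed signal was 9313 and 9958 on the control arrays and 18836 and 20343 on the mutant arrays. Myh11, the heavy chain of smooth muscle myosin, read 93.3 and 85.0 against 471 and 599, a ratio of 6.00 (5.04 to 7.05). Myl9, a regulatory light chain, read 639 and 534 against 2192 and 2581, a ratio of 4.07 (3.43 to 4.83). Tagln, an actin-binding protein of these cells, had a ratio of 3.94 (3.36 to 4.66), Mylk, the kinase of myosin light chains, 3.10 (2.69 to 3.61), and Acta2, smooth muscle actin, 2.86 (2.66 to 3.10). All 5 lay apart on the arrays of the 2 conditions. Acta2 was at nearly one level in the 2 E18.5 kidneys, with means of 3827 in the control and 3856 in the mutant.

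Of 21 measured genes of the collecting duct, which descends from the ureteric bud, 6 were higher in the mutant (Fxyd4, Krt19, Krt7, Krt8, Mal and Scnn1b), against 2.07% of named genes, and 0 in the control. The median log2 ratio was 0.45 (0.38 to 0.59), with 4 genes below 0, and the E18.5 control over the E14.5 control had 0.60. Krt19, a simple epithelial keratin, read 179 and 179 in the E14.5 control against 661 and 839.6 in the E18.5 mutant, a ratio of 4.20 (3.70 to 4.70), and its mean of 750.4 in the mutant lay above the 412 of the E18.5 control. Fxyd4, a regulator of the sodium pump in the collecting duct, read 345 and 381 against 1145 and 1432, a ratio of 3.55 (3.01 to 4.16). Krt7 had a ratio of 2.85 (2.38 to 3.37) and Krt8 one of 2.47 (2.25 to 2.70), and both lay below the E18.5 control, with means of 764 against 1174 and 1894 against 2169. The genes of the ureteric tip, the growing end of the same tree, met the criteria in 0 of 10, with a median of 0.23. Among them, Gfra1, the co-receptor for GDNF, read 991 and 861 against 1094 and 1144, and Calb1 of the distal list, which also marks the ureteric bud, read 1935 and 1985 against 2276 and 2552.

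Markers of vessels and of blood-derived cells were read next. In the endothelial list 3 of 20 genes were higher in the mutant, against 2.07% of named genes. Among these 3 was Tie1, an endothelial receptor kinase, at 165 and 154 against 494 and 663, a ratio of 3.63. Another was Sox17, at a ratio of 2.50 (2.17 to 2.83) by a probe set that was not its brightest. By their brightest probe sets 2 of the 3 met the criteria. Kdr, the VEGF receptor, read 1111 and 1186 against 973 and 1165, within the spread of the arrays. The list's summed signal was 9884 and 9923 in the control and 12221 and 13819 in the mutant. Of 22 macrophage genes 4 were higher, against 2.07% of named genes, and these were the 3 chains of complement C1q and Ptprc. C1qc read 149 and 132 against 571 and 736, a ratio of 4.64 (3.83 to 5.56), C1qb had a ratio of 3.55 (2.77 to 4.53), with 1.28 by its brightest probe set, and C1qa one of 3.33 (2.76 to 3.97). Csf1r, the receptor on which macrophages depend, read 1341 and 1477 against 1490.4 and 1684. Summed over the list, macrophage markers stood at 7027 and 6983 in the control and 9174 and 9839 in the mutant, and none was at 0.

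Interferon and MHC class I genes were higher in the mutant in 5 of 11 (B2m, Bst2, H2-D1, H2-K1 and Ly6e), against 2.07% of named genes, with 0 higher in the control and a median log2 ratio of 0.70 (0.59 to 0.80). Ly6e, a GPI-anchored surface protein, read 241 and 271 against 1274 and 1664, a ratio of 5.74 (4.71 to 6.91). Ifitm3, an interferon-induced membrane protein, read 593 and 638 against 3379.7 and 3346, a ratio of 5.46 (5.25 to 5.70), and 3169 in the E18.5 control. B2m, the light chain of MHC class I, read 1343 and 1364 against 2234 and 3318, a ratio of 2.05 (1.64 to 2.47), and H2-D1, a heavy chain, had 2.17 (2.12 to 2.21). Probe sets of MHC class I heavy chains can share sequence, so H2-D1 and H2-K1 are not separate evidence. Over the E14.5 control, this list had a median of 0.80 in the E18.5 control.

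Among insulin-like growth factor genes 3 of 9 were higher in the mutant (Igfbp3, Igfbp4 and Igfbp7), all binding proteins, against 2.07% of named genes. By their brightest probe sets 3 of the 9 had ratios below 1. Igfbp4 met the criteria only by a dimmer probe set, with 1.84 (1.55 to 2.16) by its brightest. Igfbp3 read 262 and 308 against 909 and 1186, a ratio of 3.68 (2.95 to 4.53), and Igfbp7 read 1025 and 949.7 against 3271 and 3640.1, a ratio of 3.50 (3.19 to 3.83). Both lay higher still in the E18.5 control, at means of 1842 and 5351. Igf2, the fetal growth factor, read 4871 and 3770.3 against 6684 and 7038, a ratio of 1.59 (1.37 to 1.87) that did not meet the criteria. The other genes with the highest ratios included Penk, the precursor of enkephalins, at 713 and 630.0 against 3493 and 3807, a ratio of 5.44 (4.90 to 6.04), and Lepr, the leptin receptor, at 46.9 and 43.9 against 237 and 299.6, a ratio of 5.91 (5.06 to 6.82). The brightest probe set of Lepr had a ratio of 1.08 (1.05 to 1.10). Erdr1 had a ratio of 6.03 (4.82 to 7.46).

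A few genes stood in the mutant above both the E14.5 control and the E18.5 control. Besides Sprr2f these included Tchh, trichohyalin, at 18.6 and 29.9 in the E14.5 control, a mean of 129.8 in the E18.5 control and 331 and 459.6 in the mutant. Plet1, a surface protein of some epithelial progenitors, had means of 124, 213 and 889 in the same order. Aldh1a3, a retinaldehyde dehydrogenase that makes retinoic acid, read 483 and 501 in the E14.5 control, a mean of 799 in the E18.5 control, and 1946 and 2050.4 in the mutant, a ratio of 4.06 (3.88 to 4.24) over the E14.5 control. Of the 9 retinoid genes it was the only one to meet the criteria. Over the E18.5 control the mutant's ratios were 3.04 for Tchh, 4.17 for Plet1 and 2.50 for Aldh1a3. Whatever their ratio to the E14.5 control, 37 genes met the criteria as higher in the E18.5 mutant than in the E18.5 control. Of the 18193 named genes, 30 were among them. The criteria read on the 2 mutant arrays singly, which share 1 RNA pool, gave 136 genes higher on array 1 and 20 higher on array 2.

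**Figure D3:**
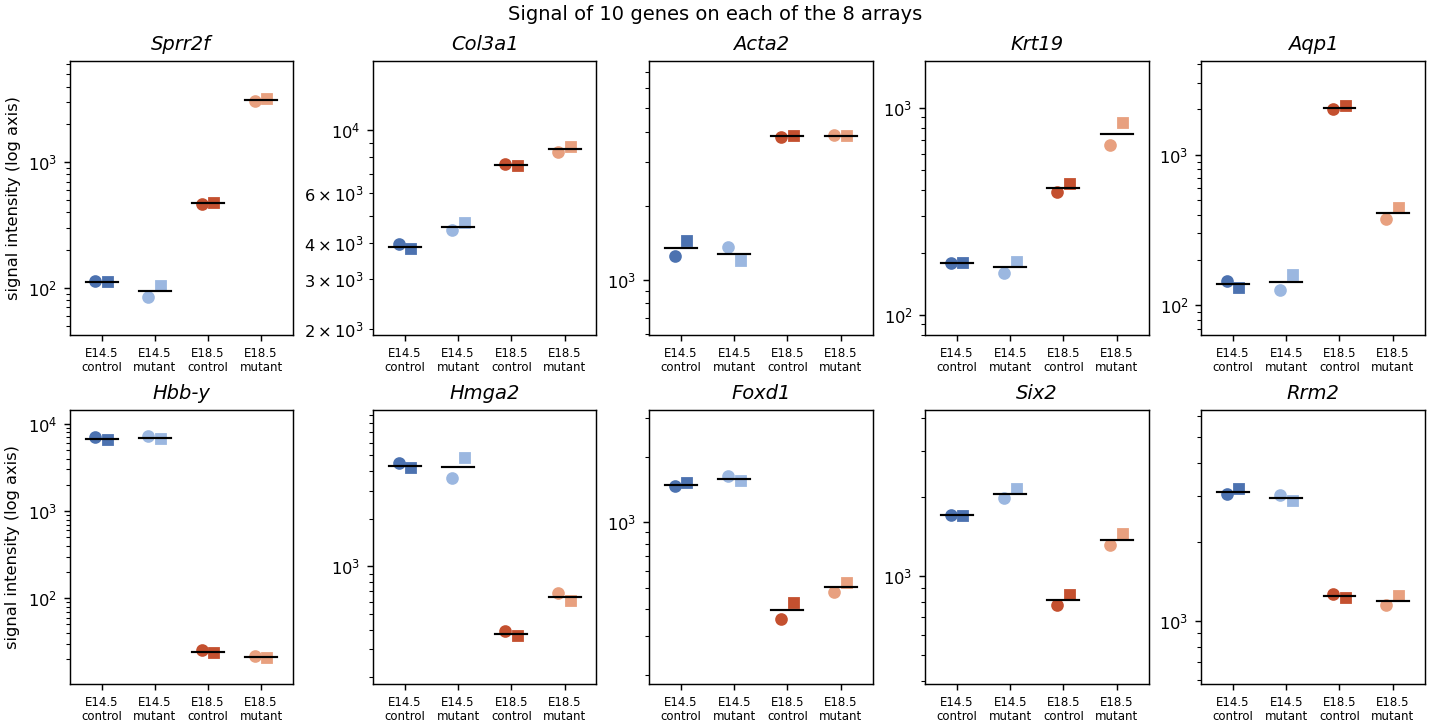
Signal intensity (log axis) of 10 genes, each by 1 probe set, on both arrays (circle for array 1, square for array 2) of the 4 conditions, with black bars at the mean. Sprr2f is highest in the E18.5 mutant, Col3a1, Acta2 and Krt19 are high in both E18.5 kidneys, Aqp1 is high in the E18.5 control, and Hbb-y, Hmga2, Foxd1 and Rrm2 are high in both E14.5 kidneys, while Six2 in the E18.5 mutant lies between the E14.5 and E18.5 controls.

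In the differentiated nephron the E18.5 mutant stood near the E14.5 control, with ratios below 1 in most tubule genes. Of 40 proximal tubule genes 1 was higher in the mutant, against 2.07% of named genes, and 0 were higher in the E14.5 control. By their brightest probe sets 30 of the 40 had ratios below 1. The median log2 ratio was -0.22 (-0.31 to -0.12), against a median of 3.21 for the E18.5 control over the E14.5 control. The median and the sums carry this comparison, since only 17 of the 40 genes reached the minimum signal in either condition and the others could not meet the criteria. Summed over the list, the signal was 9703 and 9902 in the E14.5 control, 9161 and 8724 in the E18.5 mutant, and 67333 and 67785 in the E18.5 control. The exception was Aqp1, a water channel of proximal tubule, thin descending limb and some vessels, at 146 and 129 against 375 and 439.8, a ratio of 2.97 (2.58 to 3.40), with a mean of 2046 in the E18.5 control. Hnf4a, a transcription factor of the proximal tubule, read 662 and 713 against 562 and 668 by its brightest probe set. That probe set varied little over the pools, with means of 748 in the E18.5 control and 594 in the E14.5 mutant. The study lists this gene as higher in control than in mutant kidneys at both stages, so this probe set need not speak for the gene. None of the 15 genes of the loop of Henle (median -0.16) or of the 13 of the distal and connecting tubule (-0.06) met the criteria in either direction, with 11 and 10 of them at the minimum signal. Ratios were below 1 in 14 of the 15 and in 8 of the 13. The medians of the E18.5 control over the E14.5 control were 0.77 and 0.35. Intercalated cells had 1 of 12 higher, the carbonic anhydrase Car12, at 102 and 115 against 232 and 274 with a mean of 1093 in the E18.5 control.

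Podocyte genes were higher in 2 of 20, against 2.07% of named genes, with a median of 0.10 (0.05 to 0.18). Npnt, a basement membrane ligand of integrin, read 625 and 739.7 against 2047 and 2639, a ratio of 3.43 (2.77 to 4.22), and the E18.5 control had a mean of 4086. The laminin chain gene Lamb2 was the other one, at 2.22 (1.87 to 2.64). Both are also made by other cells of the kidney. Tcf21, a factor of podocytes and stroma, read 2618 and 2774 against 4121 and 4490.1, a ratio of 1.60 (1.49 to 1.71) below the threshold. In the list of oxidative phosphorylation, whose genes stood at a median of 0.73 in the E18.5 control over the E14.5 control, the mutant had -0.02 (-0.16 to 0.17). Against 1.95% of named genes, 3 of these 23 were higher in the E14.5 control. Of these, Cycs, cytochrome c, read 1428 and 1769 against 596 and 725, which was 2.42 times higher in the E14.5 control (1.97 to 2.97), and Uqcrc2 of complex III, at 2146 and 2243 against 892 and 1250.1, was 2.05 times higher (1.72 to 2.51). The third, Atp5a1, met the criteria by a dim probe set, and its brightest one read higher in the mutant, at 4709 and 3904 against 5758 and 5868.

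**Figure D4:**
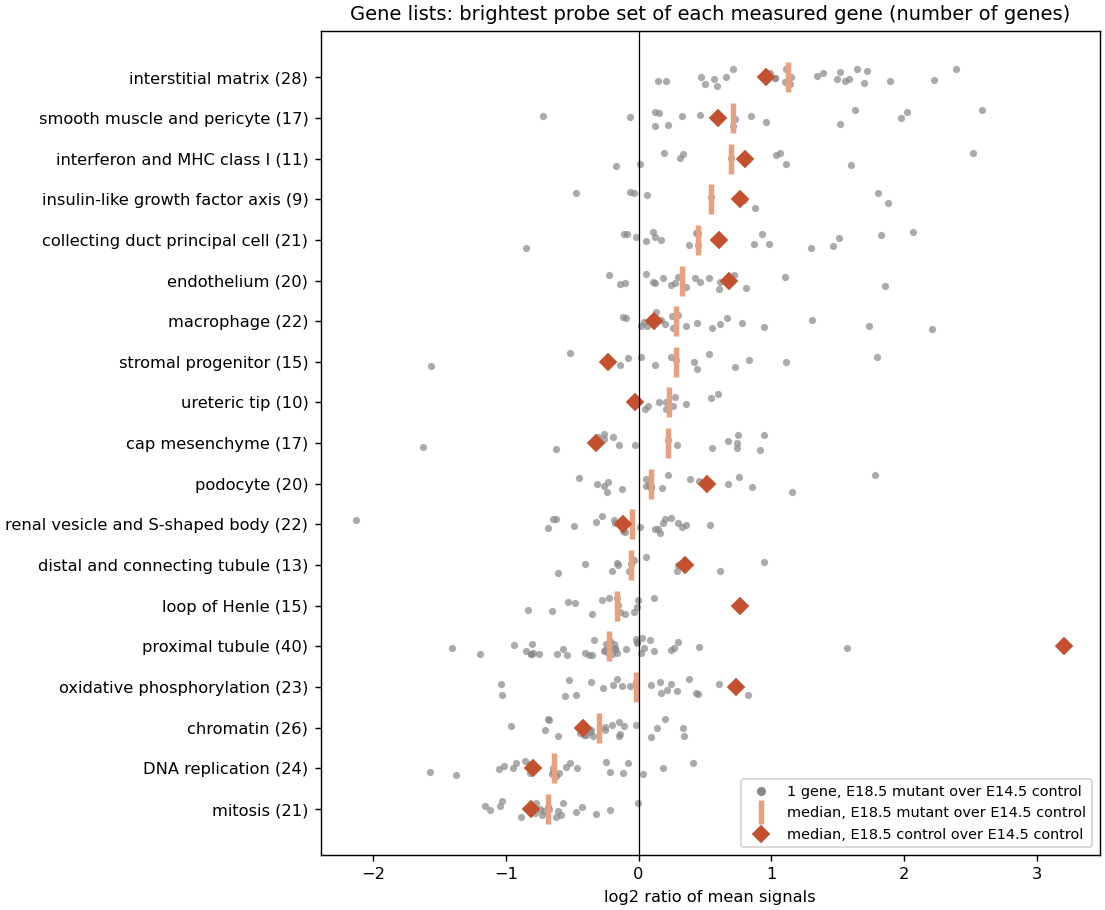
Log2 ratio of the E18.5 mutant over the E14.5 control for each measured gene of 19 lists by its brightest probe set (grey points, number of genes in parentheses), with the list median (orange bar) and the median of the E18.5 control over the E14.5 control (red diamond). The 2 medians lie close together for interstitial matrix, smooth muscle, mitosis and DNA replication, and far apart for the proximal tubule, at -0.22 and 3.21.

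Nephron progenitors and early nephron structures were mixed. In the cap mesenchyme list 0 of 17 genes were higher in the mutant and 3 in the E14.5 control (Robo2, Meox2 and Gas1), against 2.07% and 1.95% of named genes. The median of 0.22 had a range over pairings of -0.07 to 0.51 that held 0. Six2, which keeps cap cells as progenitors, read 1716 and 1704 in the E14.5 control and 1312 and 1451 in the mutant, 1.24 times higher in the control (1.17 to 1.31), with a mean of 813 in the E18.5 control. Robo2, a receptor for SLIT, read 2288 and 2202 against 709.7 and 745, a difference of 3.09-fold (2.96 to 3.22). Gas1 and Meox2 met the criteria only by dimmer probe sets, with 1.11 and 1.15 by the brightest, and that of Gas1 read 3182 and 3519.9 against 3134 and 2924. Sall1, a zinc finger factor of the cap, read 1616 and 2059.8 against 1107 and 1278, 1.54 times higher in the control (1.26 to 1.86).

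In the renal vesicle and S-shaped body 1 of 22 genes was higher in the mutant and 3 in the E14.5 control, against 2.07% and 1.95% of named genes. Wnt4, the signal that turns cap cells into epithelium, read 556 and 594 against 1082 and 1499.9, a ratio of 2.24 (1.82 to 2.70), by a probe set that was not the brightest, which gave 1.28 (1.23 to 1.34). Hes5, a Notch target of the forming nephron, read 377 and 617 against 114 and 113, 4.37 times higher in the E14.5 control (3.30 to 5.44), and Sim1, a transcription factor of the early tubule, read 226 and 313 against 112 and 126, a difference of 2.26-fold (1.79 to 2.79), with 1.07 (1.01 to 1.15) by its brightest probe set. Hes5 had a mean of 186 and Sim1 of 119 in the E14.5 mutant. Ccnd1, cyclin D1, was 6.19 times higher in the control by a probe set with mutant values of 631 and 366, but 1.60 times (1.45 to 1.77) by its brightest one. Jag1, a Notch ligand, read 982 and 1389 against 841 and 1054, within the spread of the arrays.

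Stromal progenitor genes went both ways, with 4 of 15 higher in the mutant (Ecm1, Fat4, Sfrp1 and Smoc2) and 1 in the control, against 2.07% and 1.95% of named genes. The gene higher in the control was Foxd1, the factor that defines the cortical stroma, at 1463 and 1517 against 481 and 528, 2.95 times higher in the E14.5 control (2.77 to 3.15), and 395 in the E18.5 control. Smoc2, a matrix-bound calcium-binding protein, read 358 and 307 against 1001 and 1305, a ratio of 3.47 (2.80 to 4.25). Sfrp1, which binds Wnt, had a ratio of 4.59 (3.69 to 5.52), but 1.78 (1.43 to 2.25) by its brightest probe set. Aldh1a2, a retinaldehyde dehydrogenase of the stroma, read 2599 and 2255 against 2511 and 2772, with a ratio of 1.09 (0.966 to 1.23).

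Some genes of dividing cells were lower in the E18.5 mutant. In mitosis 5 of 21 genes were higher in the E14.5 control (Birc5, Bub1b, Cenpe, Kif11 and Kif20a) against 1.95% of named genes, 0 were higher in the mutant, and all 21 had ratios below 1 by their brightest probe set, with a median log2 ratio of -0.68 (-0.84 to -0.50). Bub1b, of the spindle checkpoint, read 921 and 986 against 394 and 454, 2.25 times higher in the control (2.03 to 2.50), or 1.66 times by its brightest probe set. Kif20a, a kinesin of cytokinesis, read 439.6 and 578 against 191 and 264, 2.24 times higher (1.67 to 3.02). Cenpe, a kinetochore motor, was 5.79 times higher, but its 2 mutant values of 126 and 62.9 differed 2.00-fold. Mki67, the common proliferation marker, read 2239.8 and 2439 against 1247 and 1488, 1.71 times higher in the control (1.51 to 1.96), and Cdk1 read 2954 and 2814 against 1568 and 1883, 1.67 times higher (1.49 to 1.88), both short of the threshold. In DNA replication 5 of 24 were higher in the control (Ccne2, Cdc6, Mcm4, Rfc4 and Rrm2) with a median of -0.63 (-0.86 to -0.39). Rrm2, a subunit of ribonucleotide reductase, read 3045 and 3168 against 1152 and 1242, 2.59 times higher (2.45 to 2.75), and Ccne2, cyclin E2, read 542 and 742 against 211 and 220.5, 2.98 times higher (2.46 to 3.52). Of the 24 replication genes 3 had ratios above 1. The E18.5 control over the E14.5 control had medians of -0.81 and -0.80 for the 2 lists. Cdkn1a, the inhibitor p21, went the other way, at 281 and 264 against 506 and 614, a ratio of 2.06 (1.80 to 2.33), the only one of 7 such inhibitors to meet the criteria.

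Genes that mark fetal stage were higher in the E14.5 control in 4 of 10 (Hmga2, Igf2bp1, Igf2bp3 and Sox11), against 1.95% of named genes, and in the mutant in 0. By the brightest probe sets 2 of them met the criteria, and the list had a median of -0.16 (-0.37 to -0.13) with 4 genes above 0. Hmga2, a chromatin protein of fetal cells, read 4444 and 4150.2 against 678 and 608, 6.69 times higher in the control (6.12 to 7.31), and a mean of 377 in the E18.5 control. By its brightest probe set it was 4.07 times higher (3.66 to 4.54). Sox11, a transcription factor of immature cells, read 6838 and 5559 against 1688 and 1169, 4.34 times higher (3.29 to 5.85), with a mean of 693 in the E18.5 control. Igf2bp1, an RNA-binding protein, read 1029.9 and 1045 against 397 and 412, 2.56 times higher (2.50 to 2.63), whereas its brightest probe set was 1.14 times higher in the mutant (1.08 to 1.22). For Hmga2 and Sox11 the mutant lay between the control kidneys, nearer the one of its own age. Of the embryonic globins beside Hbb-y, Hba-x, the zeta-like chain, read 985 and 809.9 against 159 and 155, 5.71 times higher in the E14.5 control (5.08 to 6.37). The other 13 erythroid genes measured did not meet the criteria, and Fech, the last enzyme of haem synthesis, read 768 and 839 against 776 and 818.

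Probe sets of 1 gene did not always give like ratios. Of the 355 named genes higher in the control, 165 were so by their brightest probe set, and in 56 the brightest one had a ratio in the other direction. Of the 376 higher in the mutant these counts were 251 and 25. Map4 and Myh9 met the criteria in both directions by different probe sets. Of the 12 highest toward the control 8 were the brightest probe set of their gene, all but Atp5a1, Hmga2, Kif5b and Pdap1, and of the 12 highest toward the mutant 9 were, all but Aspn, Lepr and Plet1. Among the former, Rpgrip1 read 6963 and 6713 against 1633 and 1425, a difference of 4.47-fold (4.11 to 4.89), and Rpl27a, a ribosomal protein gene, 2126 and 2726 against 633 and 498, whereas in the list of ribosomal proteins 1 of 14 met the criteria and the median was 0.07.

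Lists of other organs that a dissected kidney could carry were read for tissue brought along. No gene of the adrenal (8 of 11 at the minimum signal), gonad (1 of 5), skeletal muscle (6 of 11), cartilage (7 of 16) or nerve and glia (4 of 13) lists met the criteria, and the genes under the minimum could not. The liver and plasma protein list held 2 of 10 genes higher in the mutant, against 2.07% of named genes. Its median log2 ratio was 0.46 (0.43 to 0.49), and 0.40 for the E18.5 control over the E14.5 control. In this list Alb, albumin, read 215 and 209 against 648 and 803, a ratio of 3.43 (3.02 to 3.85). Its mean in the E18.5 control was 357, and the mutant stood 2.03 times above it. Ttr, transthyretin, was 2.55 times higher than in the E14.5 control (2.29 to 2.82). Afp, of the same list, had means of 400 in the E14.5 control, 1943 in the E18.5 control and 398 in the mutant. The summed signal of the list was 1825 and 1961 in the E14.5 control and 2691 and 2929 in the mutant. In the list of fat, Fabp4, a fatty acid-binding protein also made by endothelium, had a ratio of 2.75 (2.35 to 3.26). It was the only 1 of 6 genes to meet the criteria, and 4 of the 6 had ratios below 1 by their brightest probe set. The median log2 ratio of the fat list was -0.07 (-0.19 to 0.09). Its summed signal of 1856 and 2094 against 3662 and 3800 includes Fabp4, which alone read 875 and 1136 against 2668 and 2853. The pools held both sexes, and the X-linked Xist was 2.24 times higher in the mutant (1.38 to 3.34) with 2805 and 5279 on its 2 arrays. The Y-linked Uty met the criteria toward the E14.5 control, 2.14 times higher (1.61 to 2.92), or 1.70 times by its brightest probe set. The share of females in each pool was not tested.

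To ask which of these differences go with stage, the same criteria were applied to the pair with the genotypes exchanged, the E18.5 control against the E14.5 mutant, which shares no RNA pool with the pair above. Hybridization spike-ins differed by stage in that pair too. For example, a bioC probe set read 516 and 373 in the E14.5 mutant against 223 and 164 in the E18.5 control. Agreement between the pairs thus cannot tell stage from a technical difference between the arrays of the 2 stages. In the exchanged pair, 740 named genes (4.07%) were higher at E18.5 and 473 (2.60%) at E14.5. Genes higher at E18.5 in both pairs numbered 159, which is 42.3% of those of the E18.5 mutant and 21.5% of those of the E18.5 control. Genes higher at E14.5 in both numbered 235, or 66.2% and 49.7% of each. Of the 376 genes higher in the E18.5 mutant, 366 had a log2 ratio above 0 in the exchanged pair, with a median of 0.89, and of the 355 higher in the E14.5 control, 344 had one below 0, with a median of -1.21. The log2 ratios of the 2 pairs correlated over 27022 probe sets, which share arrays and are no replicates, with Pearson r = 0.584 and Spearman rho = 0.648.

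**Figure D5:**
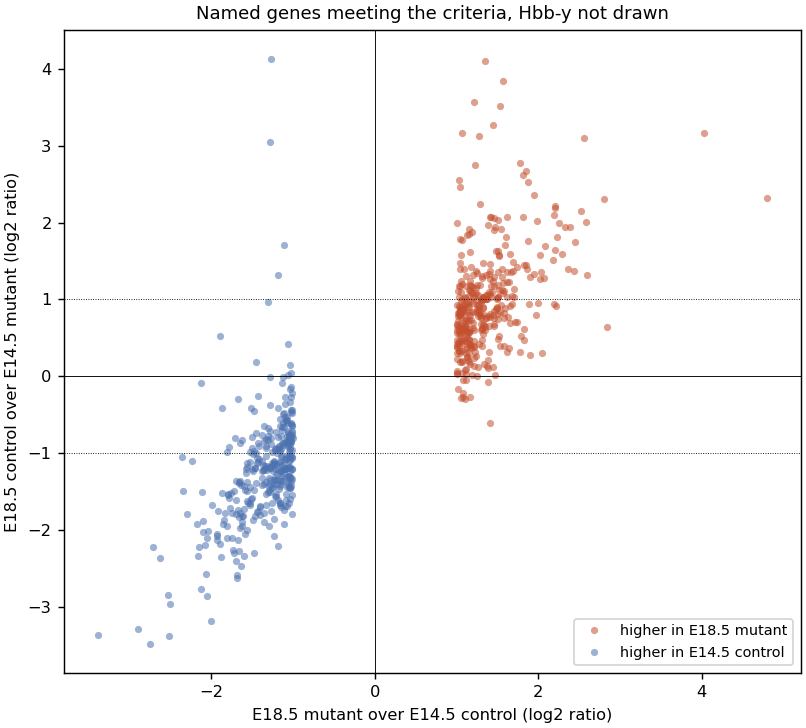
Log2 ratio of the E18.5 mutant over the E14.5 control (horizontal axis) against that of the E18.5 control over the E14.5 mutant (vertical axis), which shares no pool with the first, for the named genes higher in the E18.5 mutant (red) or in the E14.5 control (blue) by their probe set of largest ratio. Dotted lines mark 2-fold. Of 376 red genes 366 lie above 0 and of 355 blue genes 344 lie below it, with Hbb-y not drawn.

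Some genes went the opposite way in the exchanged pair, in shares near those over all named genes. Genes higher in the E14.5 control than in the E18.5 mutant, and also in the E18.5 control than in the E14.5 mutant, numbered 12. That is 3.38% of the 355, against 4.07% of all named genes higher in the E18.5 control than in the E14.5 mutant. Each control was set against the mutant of the other stage, and the 2 calls could come from different probe sets. From the 12 genes, 3 were chosen after their values were seen. Fut9, a fucosyltransferase, read 200.3 and 261 in the E14.5 control, 69.6 and 77.6 in the E14.5 mutant, 1305 and 1264 in the E18.5 control, and 92.5 and 99.5 in the E18.5 mutant. Tmem52b had means of 331, 132, 1094 and 136 in the same order. Hmgcs1, an enzyme of cholesterol synthesis, had 2201, 1643, 3217 and 894. In both Fut9 and Tmem52b all control arrays lay above all mutant arrays. Sim1 and Myh9 were also among the 12, both with probe sets that gave other ratios. In the other direction the overlap was 2.13% of the 376, against 2.60% of all named genes higher in the E14.5 mutant than in the E18.5 control. These 8 genes were higher in the mutant kidney of each pair by at least 1 probe set (Actb, Fn1, Fscn1, Malat1, Myh9, Ncam1, Smarcc1 and Xist). Actb, cytoskeletal actin, was so by a dim probe set that read 948 and 1279.5 in the E14.5 control and 2875 and 3069 in the E18.5 mutant, while its brightest probe set read 16201 and 15646 against 12793 and 5718.

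The only test the 4 pools allow is an additive limma fit on their log2 means, with terms for stage and genotype, in which the difference between E18.5 mutant and E14.5 control is the sum of both terms. It has 1 residual degree of freedom and takes as error the part of each gene that the 2 terms do not describe. Of 27022 probe sets, 0 (0%) were higher in the mutant and 3 (0.0111%) were lower at a Benjamini-Hochberg adjusted p under 0.05, and all 3 measure Hbb-y, whose log2 difference was -8.26 (SE 0.17, limma adjusted p = 0.00122) by the probe set given above. The next probe set, of Ly6e, had a limma adjusted p of 0.0596. At an unadjusted p under 0.05 the fit gave 2516 probe sets higher and 2405 lower. Thus Hbb-y fell by this test, and the other genes are described by their ratios and array values. Single arrays move these counts. Without E18.5 mutant array 1 there were 803 higher and 753 lower, without its array 2 there were 247 and 353, and without E14.5 control array 2 there were 65 and 35.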

How the data were processed

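RNA of pooled whole mouse kidneys was hybridized by the authors to Affymetrix mouse genome arrays, and 4 arrays (2 conditions, duplicates of 1 pool each) were compared, with the other 4 as reference. The deposited values are linear signal intensities that the authors computed in dChip by its model, after invariant-set normalization. The columns have medians of 225 to 243, which differ from those the study's methods state after normalization, and the step between the 2 is not given in the sources used here. The table holds 45101 probe sets, of which 64 array controls were left out. The platform table gave 34945 probe sets 1 gene, 932 several and 9160 none, with 34741 symbols updated by gene ID against RefSeq (GRCm38.p6). Probe sets without a single gene are counted but not named. No raw probe data or detection calls were used. Precision is limited by the number of arrays.

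The ratio was that of the arithmetic means of duplicates, with the criteria given in the text, and a gene counted once if any probe set met them. Genes were grouped in 42 lists (608 of 670 genes measured), each gene read by its brightest probe set in the list medians. The members and lists were chosen with earlier results of these data known. Genes named are Lhx1, the 12 highest ratios in each direction among probe sets under 1.5-fold apart between the mutant arrays, and from each list the 3 brightest and the 3 highest and 3 lowest ratios among members meeting the criteria, of which the text gives a part. Other members of a count are listed by name only or said to be chosen afterwards.

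The additive fit used limma 3.58.1 in R 4.3.3 on pool means of log2 signals with 1 added, for 27022 probe sets that passed a filter at the 40th percentile of mean signals (3.94 prior degrees of freedom). Other steps used Python 3.11.15, numpy 2.4.6 and pandas 2.3.3. The criteria and the fit were tested on simulated data. Promoters are from RefSeq. The same array numbers in 2 conditions come from the labels and do not mark shared RNA. Alternatives were median scaling, quantile normalization, 50 units added, geometric means, other minimum signals, no criterion on duplicates, both same-numbered pairs, a ratio of 3, the brightest probe set, probe sets without _x_at or _s_at, leaving out each array, and for limma a trended prior and the array number as a block.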

Additional observations from a re-analysis of the deposited data

How the results depend on the processing

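Against 426 genes higher in the E18.5 mutant and 456 higher in the E14.5 control, asking for a ratio of at least 3 left 90 and 101, asking both same-numbered array pairs for 2-fold left 249 of those higher in the control, and reading the brightest probe set only left 266 of them. Leaving out 1 of the 4 arrays gave 295 to 712 genes higher in the mutant and 308 to 715 higher in the control. The other changes of setting moved these counts by less than 1.5 times, and quantile normalization kept 423 of the 426 and 436 of the 456. The median absolute log2 ratio of 0.202 ranged from 0.207 to 0.246 with 1 array left out. The number of lists with a median log2 ratio of at least 0.5 in size, 7 of 42, ranged from 5 to 8 over the alternatives.

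In the additive limma fit, against 0 probe sets higher and 3 lower, quantile normalization gave 92 and 61. Leaving out 1 array gave 0 to 803 higher and 3 to 753 lower. Median scaling, other filters, 50 units added and a trended prior left 0 higher and 2 or 3 lower. With the 8 arrays fitted singly the array number as a replicate block and the pool as a random block (estimated correlation 0.0241), 2160 were higher and 1726 lower, a count in which technical duplicates stand as samples. The counts by ratio come from no test and take no block, and their form that asks both same-numbered pairs gave 293 and 249. The cause of these shifts was not tested. Each condition rests on 1 pool, and the fit assumes that stage has the same effect in both genotypes, which the proximal tubule list (medians of 3.21 in controls and 0.11 in mutants for E18.5 over E14.5) does not bear out.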
